A study of Caenorhabditis elegans with 4 samples.

Results

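The authors' combined list of NHR-76::GFP binding held 469 regions on chromosome II of Caenorhabditis elegans and 2245 on the other 5 nuclear chromosomes, so that chromosome II had 17.3% of all of them. They were taken as every feature line of that list that lies on chromosome II, with no limit on the q value. All libraries came from strain OP203, which carries the unc-119(ed3) allele and the transgene wgIs203, a fusion of nhr-76 to TY1, EGFP and FLAG tags together with unc-119, introduced by bombardment. Whole hermaphrodites at the third larval stage, L3, were collected from cultures kept at 20 °C, giving 2 libraries of chromatin recovered by anti-GFP antibodies (ChIP) and 2 libraries of input chromatin, all with the same genotype and treatment. The genotype lists no mutation of nhr-76 itself. Recovery was by the GFP tag, so it is the tagged copy that was followed, and signal from all tissues of the animal was pooled. The question was which places on the chromosome the fusion protein occupied at this stage.

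Nuclear hormone receptors are transcription factors that hold DNA with a zinc finger domain and have a second domain which in many members binds a small lipid-like ligand. The family is greatly expanded in nematodes, and NHR-76 has been studied in C. elegans for its part in fat loss driven by serotonin signalling to the intestine. The autosomes of this worm have gene-rich central parts with little recombination, flanked by arms that recombine more and hold more repeats. Positions are given on the WormBase WS220 build. A gene table of another build (WBcel235) was not used to place genes, since coordinates of the 2 builds cannot be mixed, and regions are therefore named by position and by their order of q on chromosome II, so that region 1 has the lowest q.

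The combined list gives each region a q value, in which a lower value means stronger evidence for binding. Each ChIP replicate also has a list of its own, made with another peak caller, in which peaks are 800 bp wide (all in replicate 2) or 400 bp (nearly all in replicate 1) and carry a score of unstated scale. Chromosome II held 3275 of the 21114 nuclear peaks of replicate 1 and 3951 of the 25332 of replicate 2, and these covered 8.30% and 16.7% of its length. The number of reads in each library is unknown here, and intervals below concern counts of regions alone. Whether the replicates came from separate cultures is not in the labels, and their spread may be technical.

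The order of q on chromosome II was led by a small number of regions with very low values. Region 1, from 848429 to 849024 near the left end, had q = 1.30e-53. It was followed by region 2, from 11618958 to 11620605 (q = 1.69e-35), region 3, from 6887298 to 6887955 (q = 1.86e-32), and region 4, from 9724944 to 9725384 (q = 2.00e-31). These 4 stood well clear of region 5, from 9291603 to 9292060, at q = 1.76e-22. Chromosome II held 8 regions with q under 1e-20 among its 469, and the other 5 chromosomes together held 13 among 2245. Region 8 lay just under this limit, at q = 8.65e-21, and the difference was not tested. Of the 469 regions, 23 had q under 1e-10, 84 under 1e-05 and 202 under 0.001. Among the 2245 regions elsewhere these counts were 106, 387 and 977, which are similar shares.

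As a class, the q values of chromosome II were not set apart from the others. The share with q under 1e-05 was 17.9% on chromosome II (84 of 469, exact 95% interval 14.5 to 21.7) and 17.2% on the other chromosomes (387 of 2245, interval 15.7 to 18.9), with 17.4% over the whole list. The difference of 0.672 percentage points did not pass the test (two-sided Fisher's exact test with adjustment for 7 compared shares, adjusted p = 0.738). The median q was 0.00150 on chromosome II and 0.00158 elsewhere.

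The 20 regions of lowest q were examined in each replicate to see how far both ChIP libraries marked them. They reached down to q = 1.60e-11, or rank 103 of the whole combined list, and were 401 to 1648 bp wide. Replicate 1 had a peak in 19 of the 20 and replicate 2 in 15, with 14 marked by both. The 2 replicates placed them very differently. In replicate 1, 12 of the 20 lay at rank 100 or better and 17 carried the highest score of that list. That score was shared by 549 nuclear peaks, whose ranks follow the numbers the authors gave them. In replicate 2 only 2 lay at rank 100 or better, and 6 lay beyond rank 5000.

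**Figure D1:**
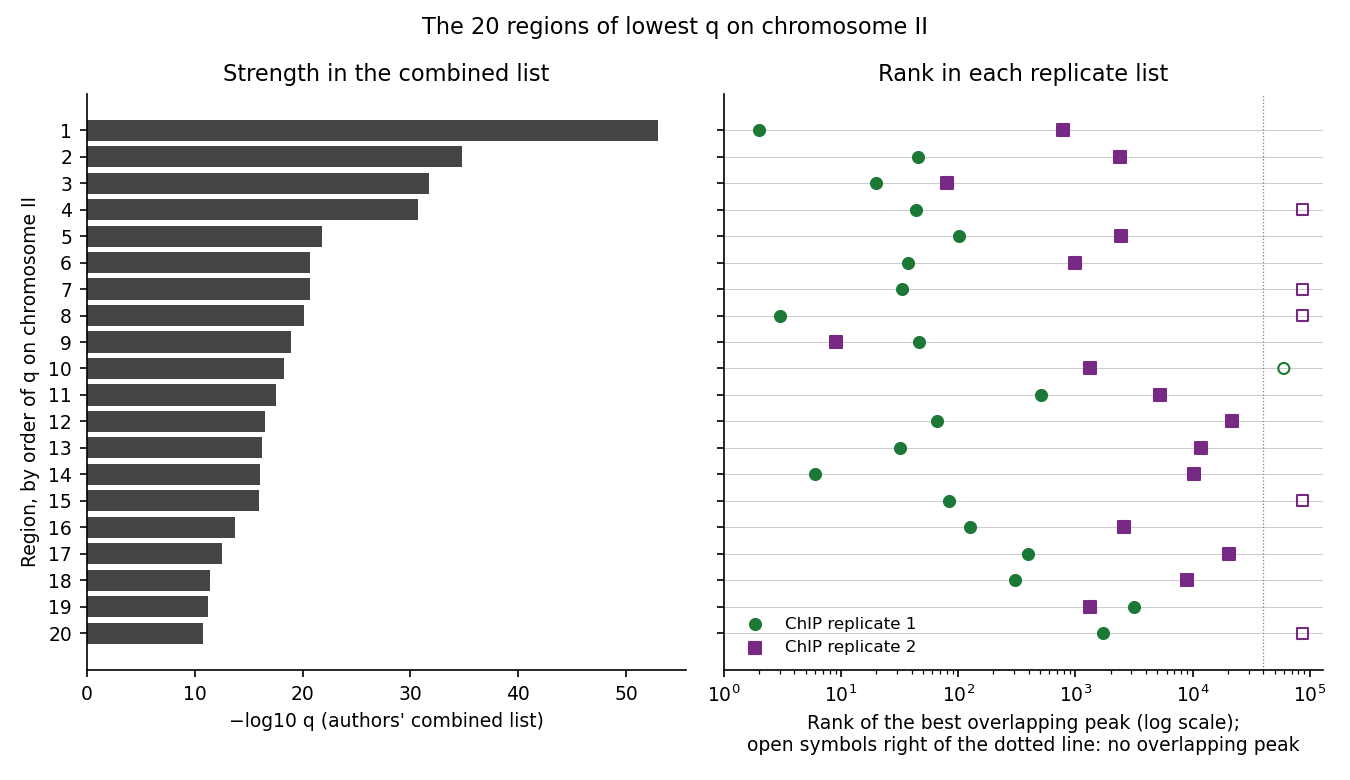
The 20 regions of lowest q on chromosome II, from region 1 at the top: bars on the left give −log10 q in the authors' combined list, and points on the right give the rank of the best overlapping peak in replicate 1 (circles) and replicate 2 (squares) on a log axis. Open symbols beyond the dotted line mark regions with no overlapping peak, which are 5 squares and 1 circle.

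Regions 3 and 9 were the only ones of the 20 with rank 100 or better in both replicates. For region 3 the best peak had rank 20 in replicate 1 and rank 80 in replicate 2, where 3 overlapping peaks lay on it with a best score of 1.43. Region 9, from 5844596 to 5845184 (q = 1.26e-19), was met by a peak of rank 46 in replicate 1 and of rank 9 in replicate 2. It was the only one of the 20 with the highest score of both lists. In replicate 2 that score is 2.12. At the strongest region of the chromosome, region 1, the score was 3.06 in replicate 1, the highest value there, and 0.882 in replicate 2, at rank 779.

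At the other extreme were strong regions for which replicate 2 gave almost nothing. Region 4 had rank 44 in replicate 1, and the nearest replicate 2 peak lay 1468 bp away. Region 15, from 4960579 to 4961093 (q = 1.06e-16), had rank 83 in replicate 1 and no replicate 2 peak within 3535 bp. The other members of the 20 without a replicate 2 peak were region 7, from 9686531 to 9687167 (q = 2.10e-21), region 8, from 10563261 to 10563670 (q = 8.65e-21), and region 20, from 12944461 to 12945067 (q = 1.60e-11). For regions 7 and 8 a replicate 2 peak lay just beyond the edge, at 103 and 72 bp. Region 8 had rank 3 in replicate 1. Region 12, from 11849523 to 11849929 (q = 2.86e-17), met a replicate 2 peak at rank 21740, and region 17, from 13834348 to 13835104 (q = 2.89e-13), met 2 replicate 2 peaks, the better of them at rank 20596. Replicate 2 peaks covered 16.7% of the chromosome, as given above. Overlap needed only 1 shared bp, so a region placed without regard to the peaks would meet 1 more often than this.

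The rest of the 20 lay between these extremes. Region 6, from 12186377 to 12187065 (q = 1.96e-21), had ranks 37 and 991 in replicates 1 and 2, and region 5 had ranks 102 and 2457. Regions 13, from 5543332 to 5544384 (q = 5.85e-17), and 14, from 8561186 to 8561586 (q = 8.16e-17), were at ranks 32 and 6 in replicate 1 but at 11742 and 10241 in replicate 2. Region 18, from 9160089 to 9160492 (q = 4.35e-12), had ranks 305 and 8984. Region 19, from 9603288 to 9603762 (q = 6.92e-12), was the weakest of those marked in replicate 1, at rank 3135 with a score of 2.56, and stood at rank 1322 in replicate 2.

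Region 10 showed the reverse. It spans 1609 bp from 8819222 to 8820830 with q = 5.11e-19, and replicate 1 had no peak on it or within 1726 bp. Replicate 2 had 2 peaks there, the best at rank 1329 with a score of 0.681. A neighbouring region from 8818243 to 8818535 (region 97, q = 3.46e-05), 686 bp away, was also without a replicate 1 peak and had 3 replicate 2 peaks, the best at rank 680. Among the 20 strongest regions, region 10 alone was missing from replicate 1.

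Over all 469 regions, 224 were marked by replicate 1 alone, 141 by both replicates, 32 by replicate 2 alone and 72 by neither. The share with a replicate 1 peak was 77.8% on chromosome II (365 of 469, exact 95% interval 73.8 to 81.5) and 72.8% on the other chromosomes (1635 of 2245, interval 70.9 to 74.7), against a level of 73.7% for the whole list. This gap had p = 0.0283 before adjustment and did not pass afterwards (Fisher's exact test, adjusted p = 0.0992). For replicate 2 the shares were 36.9% on chromosome II (173 of 469, interval 32.5 to 41.4) and 34.0% elsewhere (764 of 2245, interval 32.1 to 36.0), with 34.5% for the whole list (Fisher's exact test, adjusted p = 0.421). A peak of both replicates was present at 30.1% of regions on chromosome II and 26.8% elsewhere, with 27.3% overall (Fisher's exact test, adjusted p = 0.360). A peak of either replicate was present at 84.6% of regions on chromosome II and 80.1% elsewhere, with 80.9% overall (Fisher's exact test, adjusted p = 0.0992). None of the 4 differences passed the test. Replicate 1 and replicate 2 peaks covered 8.30% and 16.7% of the chromosome. With 1 shared bp as the rule, regions placed without regard to the peaks would meet them more often than this. That level was not computed, so the shares do not measure support beyond it. They also depend on what counts as support. With the centre of a replicate peak required inside the region, chromosome II had 68.0% for replicate 1, 19.8% for replicate 2 and 16.0% for both. With as many of the highest ranked peaks of each replicate as the combined list has regions, it had 35.4%, 10.7% and 5.33%. The tests treat regions as independent, although neighbours can share a binding event.

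Regions of lower q were more often marked by the replicates. Of the 23 regions with q under 1e-10, 22 had a replicate 1 peak and 16 had a replicate 2 peak. Among the 61 regions with q from 1e-10 to 1e-05, 58 had a replicate 1 peak and 33 a replicate 2 peak. In the next class, from 1e-05 to 0.001, these were 94 and 42 of 118 (79.7% and 35.6%). Among the 267 weakest regions they were 191 and 82 (71.5% and 30.7%). On the other chromosomes the shares with a replicate 1 peak were 97.2%, 90.0%, 79.8% and 63.7%, from the strongest class to the weakest. Those with a replicate 2 peak were 74.5%, 48.8%, 37.3% and 25.9%. The median rank of the best replicate 1 peak on chromosome II also moved with q. It went from 71.5 in the strongest class through 384 and 3072 to 4947 in the weakest. In replicate 2 the medians were 2424, 4300, 7899 and 7992. The other chromosomes had medians of 211, 803, 2876 and 4244 in replicate 1, and of 2370, 7448, 8226 and 8917 in replicate 2. Since q and the scores may share reads, these orders describe the lists and are not independent evidence. Median width also fell over these classes on chromosome II, from 607 through 471 and 348 to 221 bp, and its part in the overlap was not tested. Replicate 1 peaks at rank 549 or better share the same score.

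**Figure D2:**
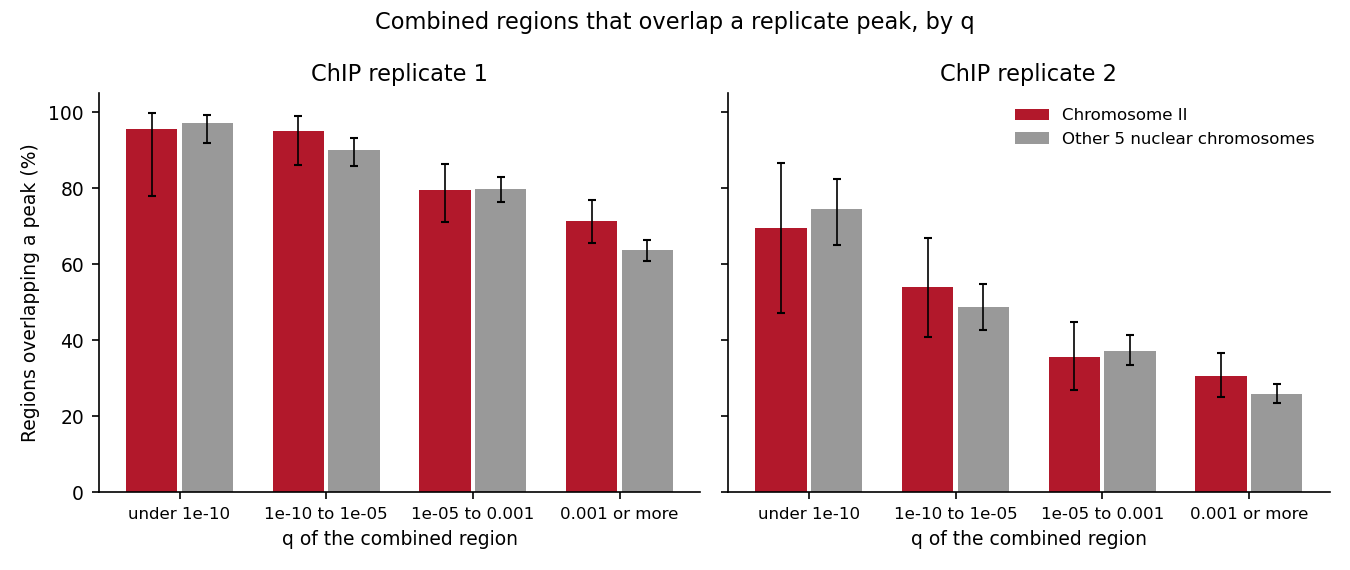
Share of combined regions that overlap a peak of replicate 1 (left panel) and replicate 2 (right panel), in percent, for 4 classes of q, on chromosome II (red) and on the other 5 nuclear chromosomes (grey). Bars start at 0 and lines are exact 95% intervals, which overlap between the 2 sets of chromosomes in every class. The overlap is smallest for replicate 1 at q of 0.001 or more, at 71.5% on chromosome II and 63.7% elsewhere. Overlap of intervals is not a test of a difference, and differences within classes were not tested.

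Over the 141 regions marked by both replicates, −log10 q followed the replicate 1 score with a rho (Spearman) of 0.568 and an r (Pearson) of 0.333. For the replicate 2 score rho was 0.123 and r was 0.242. The scores of the 2 replicates were related to each other with rho of 0.145. On the other chromosomes, over 601 regions, the corresponding values of rho were 0.454, 0.192 and 0.0936. All these points come from the same 2 ChIP libraries, and they are given as a description.

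The 2 replicates also differed in where their peaks sat within a region. In replicate 1 the centre of the best peak lay within 100 bp of the region's centre at 248 of 365 regions (67.9%), with a median distance of 64 bp. In replicate 2 this held at 47 of 173 regions (27.2%), with a median distance of 248 bp. Peaks are 800 bp wide in replicate 2 and mostly 400 bp in replicate 1. With 1 shared bp as the rule, a wider peak can lie farther from the region's centre, so larger distances in replicate 2 follow in part from width. How much remains beyond this was not tested. On the other chromosomes the medians were 61 bp in replicate 1 and 237 bp in replicate 2. Among the 84 regions of chromosome II with q under 1e-05, 10 of the 49 replicate 2 partners lay within 100 bp, and 48 of the 80 replicate 1 partners did. Elsewhere 71 of 216 replicate 2 partners of such regions (32.9%) and 222 of 356 replicate 1 partners (62.4%) lay that close, and the differences were not tested. Region 3 was among the well centred, with the best peak 56 bp to the right of its centre in replicate 1 and 51 bp to the left of it in replicate 2.

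**Figure D3:**
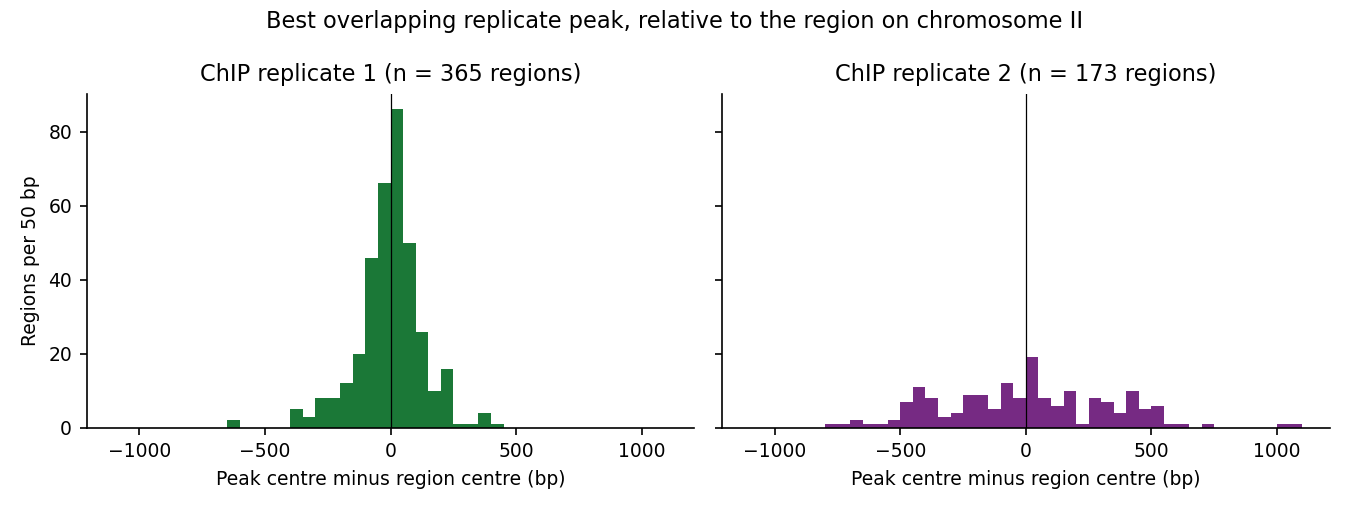
Distance in bp from the centre of each chromosome II region to the centre of its best overlapping peak, for replicate 1 (365 regions) and replicate 2 (173 regions), counted in steps of 50 bp. Replicate 1 peaks gather at the centre, with a median distance of 64 bp, and replicate 2 peaks are spread out, with a median of 248 bp. Peaks are mostly 400 bp wide in replicate 1 and 800 bp in replicate 2, which allows larger distances in replicate 2.

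Regions of chromosome II were 9 to 1648 bp wide, with a median of 291 bp and quartiles of 204 and 401 bp. The median on the other chromosomes was 298 bp, with quartiles of 205 and 423 bp. Together the regions of chromosome II covered 158364 bp, or 1.04% of its length, at a density of 30.7 regions per Mb. The other chromosomes had 28.8 to 35.1 regions per Mb, except for chromosome I, with 6.18 in the list as used here. Chromosome I held 93 combined regions but 3286 replicate 1 peaks and 3842 replicate 2 peaks, so the replicate lists did not share this low count. It raises the share of all regions that lies on chromosome II, and its cause was not tested. Width and strength moved together, with Spearman's rho between width and −log10 q of 0.720 on chromosome II and 0.698 elsewhere, and the 84 regions with q under 1e-05 had a median width of 515 bp. The 8 regions of at least 1000 bp all had q under 1e-05, 7 had a replicate 1 peak and 8 a replicate 2 peak. On the other chromosomes 35 of 37 regions of this width had q under 1e-05, 36 had a replicate 1 peak and 27 a replicate 2 peak.

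The widest were region 2 (1648 bp) and region 10 (1609 bp), described above. Next came region 26, from 9283659 to 9285168 (1510 bp, q = 3.47e-09), which had ranks 111 and 295. The centres of these peaks lay 216 and 1015 bp to the right of the region's centre, the second beyond its edge. For the best peaks on region 2 the distances were -400 and 1075 bp. A wide region marked by both replicates thus need not hold a site that both marked. Region 16, from 11634680 to 11636147 (1468 bp, q = 2.08e-14), had ranks 127 and 2604. Region 70, from 10542837 to 10544186 (1350 bp, q = 3.15e-06), was far higher in replicate 2, with rank 633 against rank 4781 in replicate 1. Within these broad regions several peaks could fit: 3 peaks of replicate 1 lay on region 2 and 4 peaks of replicate 2 lay on region 16.

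At the narrow end, 17 regions were under 50 bp, and most of these met no replicate peak. Such regions have less room to share 1 bp with a peak, which was not allowed for. A replicate 1 peak was present at 3 of the 17 and a replicate 2 peak at 4, and 11 had neither. On the other chromosomes 38 of 96 such regions had a replicate 1 peak and 16 had a replicate 2 peak. The narrowest on chromosome II was 9 bp wide, from 291531 to 291539, with q = 0.00998. All but 1 of the 17 had q above 0.001; the exception, from 11555151 to 11555190, had q = 9.81e-05 and no peak of either replicate.

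**Figure D4:**
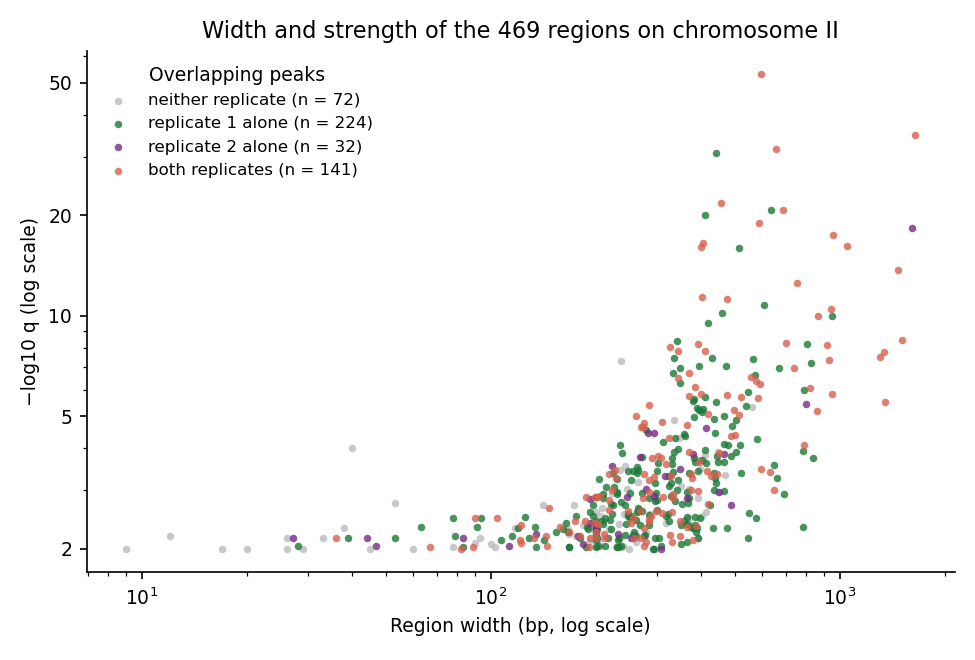
Width in bp (log axis) and −log10 q (log axis) of the 469 regions on chromosome II, each a point coloured by the replicate lists that have an overlapping peak. Strong regions are wide, and regions under 50 bp sit near the lower limit of −log10 q, mostly without a peak of either replicate (11 of 17).

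Some regions of low q had no counterpart in either replicate list. The strongest was region 41, from 14561674 to 14561909 (q = 4.96e-08), whose nearest peaks lay 9431 bp away in replicate 1 and 1799 bp away in replicate 2. Region 74, from 11150819 to 11151377 (q = 4.65e-06), had a replicate 1 peak 442 bp from its edge, and region 88, from 10033429 to 10033762 (q = 1.32e-05), had none within 3482 bp. Region 71, from 5329833 to 5330634 (q = 3.72e-06), lacked a replicate 1 peak by 149 bp and had a replicate 2 peak at rank 588. Over the 104 regions without a replicate 1 peak the median distance to the nearest was 1391 bp, and 21 had 1 within 500 bp. On the other chromosomes the median over 610 such regions was 1070 bp, and 174 had a peak within 500 bp.

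Conversely, many strong replicate peaks on chromosome II had no combined region. In replicate 1 the 50 highest ranked peaks of the chromosome overlapped a combined region in 49 cases. The share fell to 35 of 50 at ranks 51 to 100, counted on chromosome II, and to 35 of 100 and 51 of 200 in the next classes. Beyond rank 1600 it was 6.33%. The first 93 of these peaks share the highest score, so their order follows the numbers the authors gave them. In replicate 2 only 14 of the 50 highest ranked peaks overlapped a combined region, 6 of the next 50, and 4.47% beyond rank 1600. Over the full lists 422 of 3275 replicate 1 peaks (12.9%) and 254 of 3951 replicate 2 peaks (6.43%) overlapped a combined region on chromosome II, and 11.0% and 5.03% did on the other chromosomes.

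The highest score of replicate 2 was carried by 6 peaks on chromosome II, and 3 of them had a combined region. These were at region 9 and at 2 weak regions, from 13872512 to 13872758 (region 261, q = 0.00251, rank 22) and from 8546983 to 8547314 (region 228, q = 0.00144, rank 40). The other 3, from 10368750 to 10369549 (rank 19), from 4063208 to 4064007 (rank 33) and from 3542830 to 3543629 (rank 43), lay 18544, 15041 and 11808 bp from the nearest combined region and overlapped no replicate 1 peak. Next in order of rank among replicate 2 peaks without a combined region were those from 8849333 to 8850132 (rank 52) and from 334066 to 334865 (rank 53), also without a replicate 1 peak. In replicate 1 the highest ranked peak without a combined region ran from 6978050 to 6978449 (rank 241). The others of the first 5 ran from 10693631 to 10694030 (rank 267), from 11464433 to 11464832 (rank 314), from 2889163 to 2889562 (rank 322) and from 8964661 to 8965060 (rank 373). The last of these met a replicate 2 peak at rank 567, which made it a site fairly high in both replicates and absent from the combined list, with the nearest combined region 62939 bp away. All 5 carried the highest replicate 1 score, as 93 peaks on chromosome II did, 82 of them in a combined region.

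The combined list can also be set against sites that both replicates marked. Of the 976 replicate 1 peaks on chromosome II that overlapped a replicate 2 peak, 171 (17.5%) lay in a combined region, and of the 2299 without such an overlap 251 (10.9%) did, a difference that was not tested. Ordered by the worse of the 2 ranks, the first 10 of these replicate 1 peaks included 9 in the combined list, of which 2 overlap each other on region 9. The exception was the peak from 8964661 to 8965060.

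Along the chromosome the regions were unevenly spread. Windows of 1 Mb held 12 to 15 regions over the first 4 Mb and 25 to 51 from 4 to 15 Mb. The densest, from 11 to 12 Mb, held 51 regions, 12 of them with q under 1e-05, and 45 of the 51 had a replicate 1 peak while 20 had a replicate 2 peak. Regions 2, 12 and 16 lay in it. The window from 2 to 3 Mb held 14 regions and none with q under 1e-05. The largest gap between neighbouring regions, of 322224 bp, ran from 1402435 to 1724660, and the median gap was 15269 bp.

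The middle 60% of the chromosome held 328 of the 469 regions (69.9%, exact 95% interval 65.6 to 74.1), and on the other chromosomes this share was 67.7%, with 68.1% over the whole list (Fisher's exact test, adjusted p = 0.497). The 2 ends of chromosome II were unlike each other. The left 20% held 41 regions (8.74%) and the right 20% held 100 (21.3%), and on the other chromosomes the left held 373 (16.6%) and the right 352 (15.7%). Of the regions at either end, 29.1% lay at the left end on chromosome II and 51.4% elsewhere, a difference of -22.4 percentage points that passed the test (Fisher's exact test, adjusted p = 2.71e-06 over 3 lists). This comparison was chosen after the positions had been seen, and neighbouring regions are not independent. The test counts regions and does not measure the spread between chromosomes. Among regions with a replicate 2 peak the difference was -12.1 percentage points and did not pass (Fisher's exact test, adjusted p = 0.140).

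The same comparison over the full list of each replicate gave smaller differences. In replicate 1 the left end of chromosome II held 537 peaks and the right end 651, or 45.2% at the left, and elsewhere 48.8% lay at the left (Fisher's exact test, adjusted p = 0.0379). In replicate 2 there were 816 at the left and 833 at the right, or 49.5%, and elsewhere 51.5% (Fisher's exact test, adjusted p = 0.140). Among as many of the highest ranked nuclear peaks as the combined list has regions, replicate 1 had 50 at the left and 96 at the right end of chromosome II, and replicate 2 had 74 and 94. For replicate 1 these counts were 75 and 76 on chromosome I, 54 and 83 on III, and 85 and 68 on IV. They were 84 and 65 on V, and 84 and 101 on X. For replicate 2 they were 90 and 72, 92 and 77, 111 and 100, 103 and 92, and 108 and 106 on the same chromosomes. Differences among the highest ranked peaks were not tested. Other chromosomes were uneven as well: in the combined list chromosome V had 103 regions at the left and 65 at the right, and the X chromosome had 75 and 107. The counts were 17 and 22 on chromosome I, 76 and 82 on III, and 102 and 76 on IV. The pooled share elsewhere therefore mixes opposite directions.

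**Figure D5:**
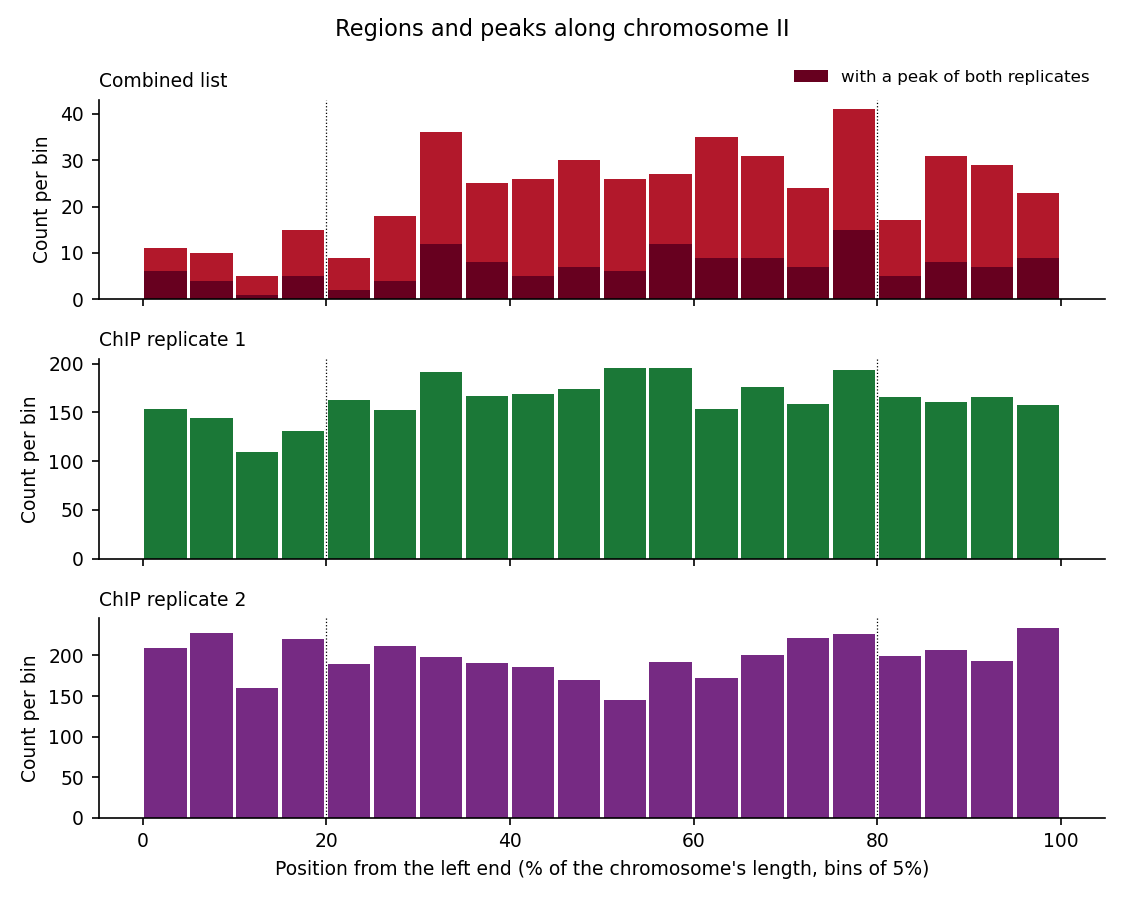
Number of combined regions (top), replicate 1 peaks (middle) and replicate 2 peaks (bottom) in bins of 5% of the length of chromosome II, from its left end, with dotted lines at 20% and 80%; the dark part of the top bars counts regions with a peak of both replicates. The combined list holds 41 regions left of 20% and 100 right of 80%, and the replicate lists hold 537 and 651 peaks (replicate 1) and 816 and 833 (replicate 2) there.

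The few regions at the left end included the strongest of the chromosome, region 1, but had a higher median q. It was 0.00486, against 0.00141 in the middle and 0.00153 at the right end, and 5 of the 41 had q under 1e-05, as did 57 of the 328 in the middle and 22 of the 100 at the right end. Replicate 1 had a peak at 26 of the 41 left-end regions, 261 of the 328 middle regions and 78 of the 100 right-end regions. Replicate 2 had a peak at 22, 115 and 36 of them. The left-end regions of the other chromosomes had a median q of 0.00186, with q under 1e-05 at 59 of 373, a replicate 1 peak at 266 and a replicate 2 peak at 133. In the middle of the other chromosomes the median q was 0.00147, and of 1520 regions 272 had q under 1e-05, 1116 a replicate 1 peak and 498 a replicate 2 peak. At their right end the median q was 0.00163, and of 352 regions 56 had q under 1e-05, 253 a replicate 1 peak and 133 a replicate 2 peak. The right end held regions 11 and 17, from 13828934 to 13829893 (q = 3.29e-18) and from 13834348 to 13835104, which are 4454 bp apart, and region 20. Differences in q and in support between these parts were not tested.

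Regions also lay close together in places. A neighbour within 2 kb was found for 124 of the 469 regions (26.4%, exact 95% interval 22.5 to 30.7) and for 27.4% on the other chromosomes, with 27.3% over the whole list (Fisher's exact test, adjusted p = 0.738). No gap was shorter than 200 bp. Joined at 2 kb, the regions formed 345 single regions, 52 pairs, 5 groups of 3 and 1 group of 5.

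The group of 5 began with region 3 at its left end and spanned 4848 bp, from 6887298 to 6892145. To the right of region 3 lay 4 weaker regions, with q from 5.11e-05 to 3.81e-04, of which 3 had a replicate 1 peak and none a replicate 2 peak. By the rule of 1 shared bp, replicate 2 marked only the leading region of this group. A replicate 2 peak lay just beyond the edge of regions 158 and 106, at 112 and 166 bp. For regions 147 and 140 the nearest was 780 and 712 bp away. The strongest of the groups of 3, from 5320144 to 5324078, was led by region 24 (q = 1.05e-10), which ranked 1555 in replicate 1 and 1719 in replicate 2, and all 3 of its regions had a replicate 1 peak. The next, from 8743027 to 8747534, had a lowest q of 4.54e-08, with replicate 1 peaks at all 3 regions and replicate 2 peaks at 2. Region 2 had a weak neighbour, from 11617643 to 11618037 (q = 2.27e-04), at 920 bp, with 4 replicate 2 peaks on it and a best rank of 3324.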

How the data were processed

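Titles put 2 libraries in the ChIP group and 2 in the input group. Worms were cross-linked with 2% formaldehyde and the chromatin was precipitated with antibodies to GFP, per the labels' protocols. The input libraries have no peak list of their own. The combined list gives a q-value for each region and names PeakSeq as its source, and the replicate lists give a score and name SPP through IDR, per the file headers and fields of the deposited files. The build is WormBase WS220, per the file headers. The aligner, tool versions, thresholds and any pooling were not given in the sources used here. Combined and replicate lists differ in caller as well as in library, and these cannot be told apart. Comment lines of the combined list record a change of build for 5 features, 1 of them on chromosome II (now from 5661020 to 5662322), and only feature lines were used.

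Values were computed with pandas 2.3.3 and NumPy 2.4.6 in Python 3.11.15, tests with SciPy 1.17.1 and plots with matplotlib 3.10.9. Overlap meant 1 shared bp. Replicate peaks were ranked over the nuclear chromosomes by score, and tied peaks follow the numbers the authors gave them, which sets the ranks among the 549 (replicate 1) and 47 (replicate 2) peaks of the highest score. Chromosome length was set to the last base of any listed peak, and mitochondrial peaks were left out. The 95% intervals of shares are exact (Clopper-Pearson) and cover counting error only, and shares were compared with two-sided Fisher's exact tests with Benjamini-Hochberg adjustment over 7 shares, or over 3 lists for the comparison of ends. Overlap matching and the share test were tested on simulated data. Named regions are the 20 of lowest q, the 5 widest, the 5 strongest without a peak of each replicate, the 5 highest ranked peaks of each replicate without a combined region, the densest window and the largest gap. Other regions named, the narrow regions, the groups of neighbours and the shared sites were picked with their values in view. The members and comparisons were chosen with earlier results of these data known. Genes and sequences were not placed, because the gene table at hand is of the WBcel235 assembly.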

Additional observations from a re-analysis of the deposited data

How the results depend on the processing

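Alternatives covered the overlap required, the peaks and regions kept, the thresholds, and the omission of chromosome I or of a replicate list. None of the 39 alternatives for the 7 shares brought a difference past the threshold (lowest Fisher's exact adjusted p = 0.0686), and 36 kept its direction. These counts include the omission of a replicate list from the peaks of either replicate. That omission repeats the comparison of the other replicate and adds nothing new. The 3 that turned were all small: regions with q under 0.001 differed by -0.449 percentage points (chromosome II minus the others), the middle 60% by -2.43 points among regions with q of at most 1e-05, and neighbours within 1 kb by 1.36 points. The cause was not tested. The gap in replicate 1 support shrank to 0.0715 points when each replicate list was limited to as many of its highest ranked peaks as the combined list has regions. Median width was 515 bp among regions with q of at most 1e-05, which are fewer and stronger. The difference between the ends was added after seeing the data. It passed in 6 of 7 alternatives and did not pass among regions with a replicate 2 peak (-12.1 points, Fisher's exact adjusted p = 0.140, 58 end regions on chromosome II). These alternatives cut the same regions in other ways or leave out chromosome I, so they are not independent support. The cause was not tested. No paired analysis was possible because the input libraries, which share their replicate numbers with the ChIP libraries, have no peak list here. Depth is unknown and limits every statement on a missing peak.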
